A study of Homo sapiens with 6 samples.

Results

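Spindlins are small nuclear proteins built of Tudor-like domains that bind histone H3 methylated on lysine 4 (H3K4), and the genes described here are those of the spindlins and of the machinery that writes the mark they read. The 10 genes were taken by symbol from a table of 11314: SPIN1 and SPIN2B, which encode spindlins, C11orf84, which encodes the protein that binds spindlin and is now named SPINDOC, WDR5, DPY30, RBBP5 and ASH2L, which encode the core shared by all H3K4 methyltransferase complexes, KMT2A and KMT2B, which encode catalytic subunits, and CXXC1, which encodes the subunit that brings the SETD1 complexes to unmethylated CpG. All 10 were listed, and all 10 passed the filter on low values that left 11061 genes to be tested.

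Trimethylated H3K4 marks the promoters of active genes. It is laid down by a family of related enzymes in mammals, each of which needs the WDR5, RBBP5, ASH2L and DPY30 core for full activity, and it is removed by the KDM5 demethylases. Spindlin 1 reads the mark, best when arginine 8 of the same tail is also methylated, and has been described as a coactivator of ribosomal RNA genes and of Wnt target genes. SPINDOC binds spindlin 1 and has been reported to hold it off the methylated tail.

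The libraries came from SNU-668, an established gastric cancer cell line, grown as a subline resistant to erastin, an inducer of ferroptosis. Of the 6 messenger RNA libraries, 3 have titles that name SPIN1 and 3 have titles that name NC, all with the prefix RLS3, which no label explains, and the treatment text tells of a hairpin RNA directed at SPIN1 or a control hairpin. All groups share the erastin-resistant background, and no label names a clone, a vector, a hairpin sequence or a time after transfection. The genotype entries run against the titles, giving wild type for the samples titled SPIN1 and SPIN1 knockdown for those titled NC, and the design text names ALKBH3 instead. The titles define the groups here, and a gene called higher or lower is so in the libraries titled SPIN1 relative to those titled NC. The question addressed is how transcripts of the spindlin and H3K4 genes differ between the groups. No label states that replicates were separate cultures, so the p-values measure the spread between these libraries, which may be technical.

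Levels are FPKM, the fragments of a gene scaled to its length and to the mapped fragments of the library, and the depth behind them is unknown. Median FPKM of a library was 5.16 to 5.49 in the libraries titled SPIN1 and 4.91 to 5.12 in those titled NC. Mitochondrially encoded genes held 32.2% to 34.9% of summed FPKM in the libraries titled SPIN1 and 34.3% to 38.4% in those titled NC. The part of these shares in the calls was not tested. Of 7 epithelial markers 3 were listed, with KRT8 and KRT18 abundant and EPCAM at 0.740 to 1.44 FPKM in the libraries titled SPIN1 and 0.313 to 0.790 FPKM in those titled NC, while CDH1, KRT19, CLDN4 and CLDN7 were not analysed here. The summed FPKM of the 3 was 140 to 241 in the libraries titled SPIN1 and 95.4 to 114 in those titled NC. Of 5 leukocyte markers CD14 and CD68 were listed (sum 91.0 to 156 FPKM in the libraries titled SPIN1, 168 to 181 FPKM in those titled NC), and of 7 fibroblast and endothelial markers DCN and CDH5 (sum 4.69 to 6.63 FPKM in the libraries titled SPIN1, 3.26 to 3.61 FPKM in those titled NC). Among these markers limma called KRT8 (2.25-fold, adjusted p = 0.0153), KRT18 (1.64-fold, adjusted p = 0.0399) and DCN (2.44-fold, adjusted p = 0.00902) higher and CD14 lower (2.09-fold, adjusted p = 0.0116). CDH5 went against DCN, at 0.844 FPKM in the libraries titled SPIN1 and 1.54 FPKM in those titled NC on average, and was not called. None of the listed markers was at 0, the summed levels did not overlap between the groups for any of the lists, and their part in the results below was not tested. The RNA was bulk RNA of a cell line, so these markers give no share of cell types. Fewer cells with a transcript and less of it per cell cannot be told apart in it.

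SPIN1, the gene named in the titles, was uneven in both groups, whereas its relative SPIN2B and its binding partner C11orf84 were higher in the libraries titled SPIN1. SPIN1 (ENSG00000106723.16_2, hg19 chromosome 9, 91003334 to 91093609, plus strand) had 0.324, 0.629 and 2.49 FPKM in titled SPIN1 replicates 1 to 3, against 0.322, 6.18 and 7.97 FPKM in titled NC replicates 1 to 3. Titled NC replicate 1 lay with the low libraries titled SPIN1, so the groups overlapped. Mean SPIN1 was 1.15 ± 1.17 FPKM in the libraries titled SPIN1 and 4.82 ± 4.00 FPKM in those titled NC (SD, n = 3 each). The difference of log2(FPKM + 1) was -1.17 (SE 0.77) and did not pass limma's test across all genes (Benjamini-Hochberg adjusted p = 0.307, with a threshold of 0.05). Differences on this scale understate the change of genes with low FPKM. Without titled NC replicate 1 the SPIN1 difference was -2.03 (limma adjusted p = 0.0302), and without titled NC replicate 3 it was -0.65 (limma adjusted p = 0.601). With a weight per library it was -1.87 (limma adjusted p = 0.0248). The weights were 3.57 for titled SPIN1 replicate 2 and 3.12 for titled NC replicate 2. Those of the other libraries ran from 0.314 to 1.17, so the weighted fit leaned on replicate 2 of each group. The overlap means that the level of the targeted gene does not settle which label is right, and each direction given here rests on the titles.

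The spread of SPIN1 stood near the top of the table. The SD of its log2(FPKM + 1) values was 1.51 in the libraries titled NC, at or above that of 99.8% of the genes tested, and 0.74 in the libraries titled SPIN1, at 97.4%. The median SD over all genes tested was 0.16 in the libraries titled SPIN1 and 0.12 in those titled NC. Titled NC replicate 1 lay at least 5-fold below both other libraries titled NC for 67 of the genes tested, or 0.606%. The same count was 39 to 46 for single libraries titled SPIN1 and 46 to 52 for the other two titled NC, so titled NC replicate 1 had the most such genes of the 6 libraries. The part of the library in its low SPIN1 value was not tested.

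The SPIN1 promoter window is shown because the gene is the one targeted. It covers 250 bases before to 50 bases after the start in RefSeq on GRCh38.p14 (chr9:88388194-88388493, plus strand), with matches to GCGCNTGCG, a loose form of the motif of the transcription factor NRF1, in capitals.
SPIN1 promoter: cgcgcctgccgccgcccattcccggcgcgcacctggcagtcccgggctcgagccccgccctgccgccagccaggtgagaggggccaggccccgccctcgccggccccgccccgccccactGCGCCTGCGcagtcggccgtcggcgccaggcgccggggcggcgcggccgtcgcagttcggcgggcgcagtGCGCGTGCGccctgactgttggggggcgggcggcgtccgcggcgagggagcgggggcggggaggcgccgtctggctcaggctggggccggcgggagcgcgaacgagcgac
The window holds 51 CpG, more than 99.0% of the 35116 windows in the table, where the median is 14. The NRF1 form occurs 2 times in it, and on either strand in 7.47% of all windows. Windows were found for 7 of the 10 genes. RefSeq windows of C11orf84, DPY30 and ASH2L are not used here.

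By the root mean square distance between log2(FPKM + 1) profiles, each centred on the gene's own mean over the 6 libraries, 5 genes lay nearest to SPIN1 among the 8583 whose mean reached 2 FPKM. These were AC068775.2 at a distance of 0.44, WWC2, which encodes a cytoplasmic scaffold of the Hippo pathway, at 0.45, KLF6, which encodes a zinc finger transcription factor, at 0.47, OTUD6B, which encodes a deubiquitinase, at 0.55, and RNF216, which encodes a ubiquitin ligase, at 0.55. The median distance over the genes searched was 1.15. KLF6 had 5.75, 12.7 and 16.8 FPKM in titled SPIN1 replicates 1 to 3, against 9.61, 28.4 and 29.6 FPKM in titled NC replicates 1 to 3. WWC2 had 0.716, 1.20 and 2.78 FPKM in titled SPIN1 replicates 1 to 3, against 0.761, 4.10 and 4.66 FPKM in titled NC replicates 1 to 3. Both were low in titled NC replicate 1, which is part of the profile they were chosen for. The 5 genes are a description of likeness and carry no test.

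**Figure D1:**
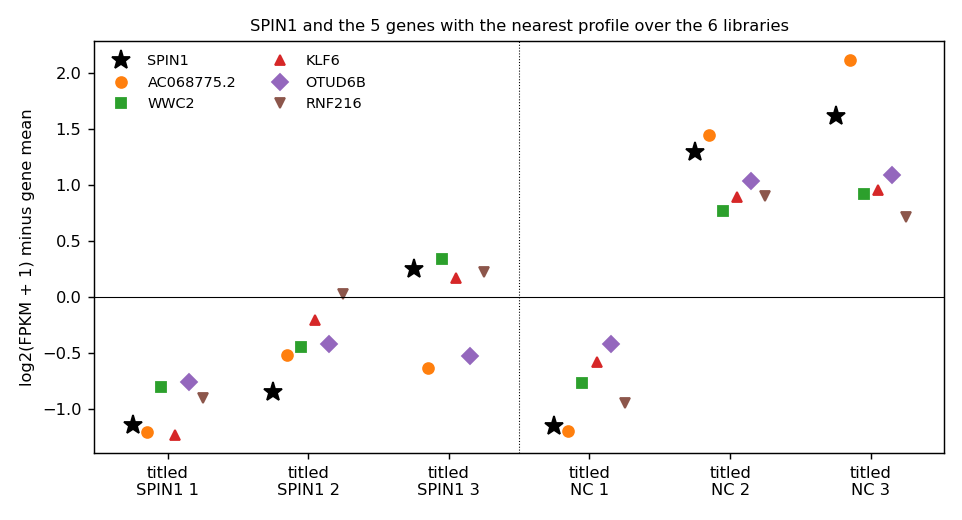
Points give log2(FPKM + 1) minus the mean of the gene over the 6 libraries (vertical axis) for SPIN1 (stars) and the 5 genes nearest to it, by library, those titled SPIN1 left of those titled NC. All 6 genes are low in titled NC replicate 1 and high in titled NC replicates 2 and 3, as the choice by likeness to SPIN1 makes them.

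SPIN2B, an X-linked spindlin gene (ENSG00000186787.8_3, hg19 chromosome X, 57144984 to 57147979, minus strand), had 2.07, 2.47 and 2.33 FPKM in the libraries titled SPIN1, against 1.46, 1.07 and 1.72 FPKM in those titled NC. All libraries titled SPIN1 lay above all titled NC. The means were 2.29 ± 0.200 FPKM in the libraries titled SPIN1 and 1.42 ± 0.326 FPKM in those titled NC (SD, n = 3 each), 1.61-fold higher, and the log2 difference of 0.45 (SE 0.13) passed the test (limma adjusted p = 0.0429). The call was lost without titled SPIN1 replicate 2 or 3 or titled NC replicate 1 or 2 (limma adjusted p up to 0.134), after median scaling (0.0548) or quantile normalization (0.0639), and with the replicate number as a block (0.0667).

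Its neighbour SPIN2A (hg19 chromosome X, 57160963 to 57164058, minus strand) had 0.550, 0.502 and 0.523 FPKM in the libraries titled SPIN1, against 0.183, 0.253 and 0.247 FPKM in those titled NC. Its mean of 0.376 FPKM fell under the filter, so it was not tested. In the deposited table no gene has both group means under 0.5 FPKM, the lowest of the higher group means being 0.5003 FPKM, and SPIN2A passes this floor in the libraries titled SPIN1 (0.525 FPKM) but not in those titled NC (0.228 FPKM). It is thus listed through the group where it is high, and its separation between the groups supports nothing. The longest annotated coding sequences of the pair in GENCODE v29 differ at 2 of 774 bases, and 64.0% of the 625 stretches of 150 bases in SPIN2B, the read length in the labels, also occur whole in SPIN2A. Single reads from them can therefore be assigned to either gene, though a mate outside them may tell the genes apart. The sources used here do not say how the authors divided such reads. Only coding sequences were compared, not the untranslated parts. The sites that tell these coding sequences apart are shown with the differing base in capitals. They are counted from 1 at the first base of the start codon, as T405C and G700A from SPIN2B to SPIN2A.
SPIN2B bases 385 to 425: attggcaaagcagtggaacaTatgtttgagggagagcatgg
SPIN2A bases 385 to 425: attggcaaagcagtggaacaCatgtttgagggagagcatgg
SPIN2B bases 680 to 720: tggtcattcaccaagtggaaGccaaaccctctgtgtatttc
SPIN2A bases 680 to 720: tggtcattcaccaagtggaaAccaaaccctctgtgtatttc
The sum of SPIN2A and SPIN2B was 2.62, 2.97 and 2.85 FPKM in the libraries titled SPIN1. In those titled NC it was 1.65, 1.33 and 1.97 FPKM. This sum holds SPIN2A and so carries its limit. It depends on the division of shared reads only through gene model lengths if none was dropped or counted for both genes, which is not known. SPIN1 shares less sequence with either: its coding sequence is 80.0% identical to that of SPIN2B, and 0 of its 637 stretches of 150 bases occur in SPIN2B or SPIN2A. With SPIN1 added, the spindlin sum was 2.95, 3.60 and 5.34 FPKM in the libraries titled SPIN1, against 1.97, 7.50 and 9.93 FPKM in those titled NC. The groups overlapped in that sum, titled NC replicate 1 being the lowest of all 6 libraries. SPIN3 and SPIN4 were not analysed here.

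C11orf84 (ENSG00000168005.8_2, hg19 chromosome 11, 63580860 to 63595190, plus strand) had 14.3, 14.1 and 13.5 FPKM in the libraries titled SPIN1, against 11.2, 9.10 and 8.17 FPKM in those titled NC. The groups did not overlap, and the libraries titled SPIN1 were close together. The means were 13.9 ± 0.430 FPKM in the libraries titled SPIN1 and 9.49 ± 1.56 FPKM in those titled NC (SD, n = 3 each), 1.47-fold higher. The log2 difference of 0.52 (SE 0.12) had the smallest adjusted p of the 10 genes (limma adjusted p = 0.0236). It was not past the threshold after median scaling (limma adjusted p = 0.0529) or without titled SPIN1 replicate 2 or 3 or titled NC replicate 2 or 3 (up to 0.0847).

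**Figure D2:**
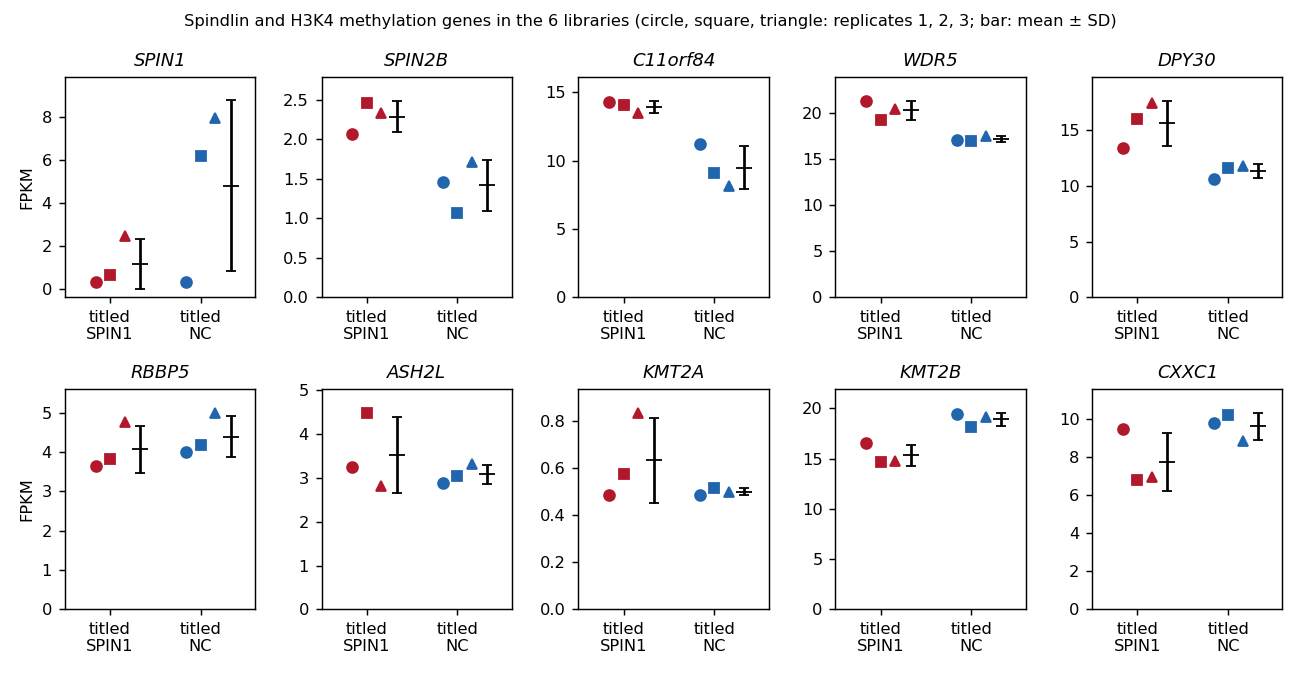
FPKM (vertical axes, each starting at or just under 0) of the 10 genes in each library, with the libraries titled SPIN1 left of those titled NC, symbols for replicates 1 to 3 and bars for mean ± SD. SPIN2B, C11orf84, WDR5 and DPY30 lie higher without overlap, KMT2B lies lower without overlap, and SPIN1 shows the low titled NC replicate 1 at 0.322 FPKM.

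Of the 4 genes of the shared core, DPY30 was higher, WDR5 did not overlap between the groups and missed the threshold, and RBBP5 and ASH2L overlapped between the groups. DPY30, which encodes the small dimeric subunit that stimulates methylation (ENSG00000162961.13_3, hg19 chromosome 2, 32092878 to 32264881, minus strand), had 13.4, 15.99 and 17.4 FPKM in the libraries titled SPIN1, against 10.6, 11.6 and 11.8 FPKM in those titled NC. The means were 15.6 ± 2.01 FPKM in the libraries titled SPIN1 and 11.3 ± 0.626 FPKM in those titled NC (SD, n = 3 each), 1.38-fold higher (log2 difference 0.42, SE 0.12, limma adjusted p = 0.0386). The call held in 1 of the 6 fits without a library, the one without titled SPIN1 replicate 1 (limma adjusted p = 0.0137), and was lost in the others (up to 0.111), as it was after median scaling (0.0514) and quantile normalization (0.0595). The DPY30 entry spans 172004 bases, of which 143422 overlap the entry of MEMO1 on the same strand. In GENCODE v29, 50.5% of the 2745 exon bases of DPY30 are also exon bases of MEMO1. MEMO1 averaged 9.69 FPKM in the libraries titled SPIN1 and 7.73 FPKM in those titled NC, and the division of shared fragments between them is not stated.

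WDR5, the propeller subunit that holds the catalytic protein in the complex (ENSG00000196363.9_2, hg19 chromosome 9, 137000487 to 137025090, plus strand), had 21.3, 19.2 and 20.4 FPKM in the libraries titled SPIN1, against 17.1, 16.9 and 17.5 FPKM in those titled NC. Its log2 difference of 0.23 (SE 0.08) missed the threshold (limma adjusted p = 0.0877), and with a weight per library it was past it (0.18, limma adjusted p = 0.0376). RBBP5, a second propeller subunit (hg19 chromosome 1, 205055270 to 205091143, minus strand), had 3.65, 3.81 and 4.76 FPKM in the libraries titled SPIN1, against 4.01, 4.17 and 5.003 FPKM in those titled NC (log2 difference -0.09, SE 0.13, limma adjusted p = 0.641). ASH2L, which pairs with RBBP5 to activate the catalytic domain (hg19 chromosome 8, 37962760 to 38001594, plus strand), had 3.24, 4.48 and 2.82 FPKM in the libraries titled SPIN1, against 2.87, 3.05 and 3.31 FPKM in those titled NC. Both genes overlapped between the groups. The log2 difference of ASH2L was 0.13 (SE 0.15, limma adjusted p = 0.566) and turned to -0.018 without titled SPIN1 replicate 2, its highest library.

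The core genes were not at equal levels per length. WDR5 stood at 4.29 to 5.84 times the FPKM of RBBP5 in the libraries titled SPIN1 and at 3.50 to 4.26 times in those titled NC. Relative to DPY30 the level of WDR5 was 1.17 to 1.59 times in the libraries titled SPIN1 and 1.45 to 1.61 times in those titled NC. Relative to ASH2L it was 4.29 to 7.24 times in the libraries titled SPIN1 and 5.29 to 5.94 times in those titled NC. Only the ratio to RBBP5 did not overlap between the groups, which came as close as 4.29 and 4.26.

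The catalytic genes and CXXC1 had no call in either direction. KMT2B (ENSG00000272333.5_2, hg19 chromosome 19, 36208921 to 36229779, plus strand) had 16.5, 14.6 and 14.8 FPKM in the libraries titled SPIN1, against 19.4, 18.2 and 19.2 FPKM in those titled NC. The groups did not overlap. The means were 15.3 ± 1.07 FPKM in the libraries titled SPIN1 and 18.9 ± 0.643 FPKM in those titled NC (SD, n = 3 each), with a log2 difference of -0.29 (SE 0.09, limma adjusted p = 0.0546). It was past the threshold after median scaling (-0.37, limma adjusted p = 0.0303), after quantile normalization (-0.36, 0.0262), with a weight per library (-0.31, 0.00586), with the replicate number as a block (0.0478) and without titled SPIN1 replicate 1 (-0.34, 0.0298). The KMT2B entry shares 78 bases with IGFLR1 on the other strand, and whether strand was used in quantification is not stated.

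KMT2A, the gene rearranged in many acute leukaemias (ENSG00000118058.20_3, hg19 chromosome 11, 118307205 to 118397547, plus strand), had 0.484, 0.576 and 0.833 FPKM in the libraries titled SPIN1, against 0.486, 0.513 and 0.497 FPKM in those titled NC. The groups overlapped, and its mean of 0.565 FPKM was just above the filter of 0.5, with 0.631 FPKM in the libraries titled SPIN1 and 0.499 FPKM in those titled NC on average (log2 difference 0.12, SE 0.10, limma adjusted p = 0.426). KMT2A reaches the deposited floor of 0.5 FPKM only in the libraries titled SPIN1, so it is listed through the group where it is higher. Its difference therefore supports nothing. KMT2B was 17.7 to 34.2 times the FPKM of KMT2A in the libraries titled SPIN1 and 35.5 to 39.9 times in those titled NC. This ratio carries the same limit.

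CXXC1, whose protein binds unmethylated CpG through a CXXC zinc finger (ENSG00000154832.14_2, hg19 chromosome 18, 47808713 to 47814674, minus strand), had 9.48, 6.78 and 6.95 FPKM in the libraries titled SPIN1, against 9.82, 10.2 and 8.85 FPKM in those titled NC. Titled SPIN1 replicate 1 lay among the libraries titled NC. Its log2 difference of -0.29 (SE 0.14, limma adjusted p = 0.173) did not pass, and it was -0.43 without that library (limma adjusted p = 0.0275) and -0.44 with a weight per library (limma adjusted p = 0.00820).

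The promoter windows of CXXC1 (chr18:50287643-50287942, minus strand) and KMT2B (chr19:35717753-35718052, plus strand), from RefSeq on GRCh38.p14, are shown because both hold AAGATGGCG, the core of the motif of the transcription factor YY1, here in capitals.
CXXC1 promoter: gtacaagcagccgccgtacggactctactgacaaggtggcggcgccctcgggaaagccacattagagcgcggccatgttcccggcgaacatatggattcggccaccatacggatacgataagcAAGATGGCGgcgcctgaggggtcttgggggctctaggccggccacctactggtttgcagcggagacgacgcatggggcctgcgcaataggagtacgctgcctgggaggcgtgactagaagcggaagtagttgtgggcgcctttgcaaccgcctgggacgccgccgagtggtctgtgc
KMT2B promoter: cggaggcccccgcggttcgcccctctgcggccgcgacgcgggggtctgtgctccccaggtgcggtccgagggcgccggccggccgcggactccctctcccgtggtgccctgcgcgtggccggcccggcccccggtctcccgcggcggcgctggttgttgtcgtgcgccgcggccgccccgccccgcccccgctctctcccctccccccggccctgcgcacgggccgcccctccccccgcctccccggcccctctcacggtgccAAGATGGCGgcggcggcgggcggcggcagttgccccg
This motif occurs on either strand in 614 of all 35116 windows, or 1.75%, and in no other window of the 7 genes that have one. In the KMT2B window it lies after the start, in the last 50 bases. Whether the ATG it holds there is the start codon was not tested. CpG counts were 28 for CXXC1, 48 for KMT2B, 36 for KMT2A, 18 for RBBP5, 16 for SPIN2B and 6 to 45 over the 4 windows of WDR5. The E2F forms TTTCCCGC (1.63% of all windows) and TTTGGCGC (0.652%) were in none of these windows. The ETS core CCGGAAG (10.3%) was in 1 window of WDR5, as was the NRF1 form. These motifs were chosen after the expression values were known, and a match describes the letters and shows no binding.

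**Figure D3:**
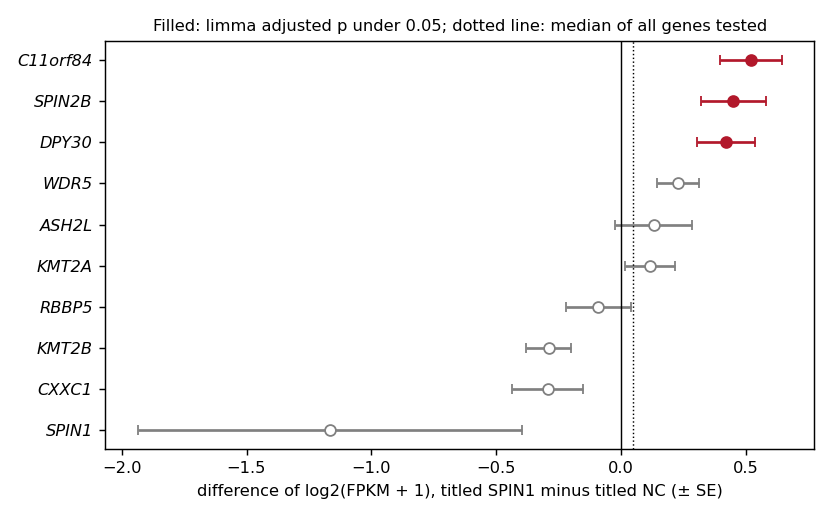
Difference of log2(FPKM + 1), titled SPIN1 minus titled NC, with its standard error (horizontal axis) for the 10 genes, ordered by size. C11orf84, SPIN2B and DPY30, at 0.52, 0.45 and 0.42, are filled as past the threshold, and the error of SPIN1 (0.77) is the widest.

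Across the 10 genes, 3 were higher, 0 were lower and 7 did not pass the test. Over all 11061 genes tested, limma called 17.3% higher and 10.3% lower (27.6% in either direction), so the 3 of 10 is to be read against a table in which many genes were called. Of all calls 62.7% were higher, against 52.1% after median scaling and 50.4% after quantile normalization. Under these scalings the 10 genes had 0 and 1 higher calls, and 1 and 1 lower. The number of higher calls was also 0 when titled SPIN1 replicate 2 or 3 or titled NC replicate 2 was left out, and 1 when titled NC replicate 1 or 3 was. The lower calls were 0 at a limma adjusted p under 0.05, while KMT2B had an unadjusted p of 0.0156. The groups did not overlap for 4 of the genes higher and 1 lower, where 27.2% and 18.8% of all genes tested did not overlap. For these 5 an exact permutation test of the mean difference (two-sided) gave p = 0.1, and 3 against 3 libraries allow nothing smaller. The lack of overlap fixes that value, so the test adds nothing for them. The same permutation test gave p = 0.2 to 0.7 for the other genes. The median log2 difference of the 10 was 0.12, against 0.05 over all genes tested. It lies between KMT2A (0.116) and ASH2L (0.131) and carries the limits given for them above.

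Ordered by the mean level over the 6 libraries, the genes ran WDR5 (18.7 FPKM), KMT2B (17.1), DPY30 (13.5), C11orf84 (11.7), CXXC1 (8.68), RBBP5 (4.23), ASH2L (3.30), SPIN1 (2.98), SPIN2B (1.85) and KMT2A (0.565). Ranges over the libraries overlapped for each pair of neighbours in this order except CXXC1 with RBBP5 and SPIN2B with KMT2A. WDR5 was above KMT2B in each library titled SPIN1 and below it in each titled NC.

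The other genes of the pathway were then counted in 9 lists of 94 genes, of which 84 were tested. Of these 10 were higher (11.9%), 12 were lower (14.3%) and 62 missed the threshold, against 17.3% and 10.3% of all genes tested, with a median log2 difference of -0.05. The higher and lower calls were 8 and 15 after median scaling and 7 and 17 after quantile normalization. Of the 22 calls, 7 held in all 6 fits without a library. The higher calls were 5 without titled SPIN1 replicate 3, titled NC replicate 1 or titled NC replicate 2, and 6 without titled NC replicate 3. The lower calls numbered 5 with titled SPIN1 replicate 2 left out, 8 with its replicate 3 left out, 3 with titled NC replicate 2 left out and 2 with its replicate 3 left out.

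Among 14 tested genes of the other H3K4 methyltransferase subunits, 2 were higher (14.3%), 5 were lower (35.7%) and 7 did not pass. Of all genes tested 17.3% were higher and 10.3% lower, and the median log2 difference of the 14 was -0.18. PSIP1, whose protein joins the KMT2A complex to chromatin, averaged 7.51 ± 1.43 FPKM in the libraries titled SPIN1 and 3.54 ± 0.433 FPKM in those titled NC (SD, n = 3 each), 2.12-fold higher (log2 difference 0.90, SE 0.15, limma adjusted p = 0.00671). This call held in all 6 fits without a library. BOD1, known from chromosome biorientation and as a component of a SETD1 complex, averaged 9.38 ± 0.542 FPKM in the libraries titled SPIN1 and 13.9 ± 1.28 FPKM in those titled NC (log2 difference -0.52, limma adjusted p = 0.0122), and lost its call without titled NC replicate 3 (0.0502). The genes that complete the counts were named after their values were seen. PAGR1, a subunit of the KMT2C and KMT2D complexes, was higher (log2 difference 0.33, limma adjusted p = 0.0276). The catalytic SETD1A and SETD1B were both lower, SETD1A at 11.2 ± 1.38 FPKM in the libraries titled SPIN1 and 15.4 ± 0.744 FPKM in those titled NC (limma adjusted p = 0.0279), SETD1B at 4.49 ± 0.162 FPKM in the libraries titled SPIN1 and 6.43 ± 0.344 FPKM in those titled NC (limma adjusted p = 0.0157). NCOA6, a coactivator subunit, and KDM6A, the H3K27 demethylase of the same complexes, were lower too, with log2 differences of -0.50 (limma adjusted p = 0.0434) and -0.59 (limma adjusted p = 0.0174). None of the calls of PAGR1, SETD1A, SETD1B, NCOA6 and KDM6A held in all 6 fits without a library (limma adjusted p up to 0.133 for NCOA6), and that of PAGR1 was also lost after median scaling and quantile normalization. The catalytic KMT2C and KMT2D, at -0.17 and -0.19, were not past the threshold.

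Among 8 genes of H3K4 demethylases and their partners, 1 was higher (12.5%) and 0 were lower, against 17.3% and 10.3% of all genes tested. The higher gene was KDM1A, and the median log2 difference of the 8 was -0.13. KDM1A, which removes the lower methylation states of H3K4, averaged 25.5 ± 1.44 FPKM in the libraries titled SPIN1 and 15.5 ± 0.761 FPKM in those titled NC, 1.65-fold higher (SD, n = 3 each; log2 difference 0.69, SE 0.09, limma adjusted p = 0.00283). This call held under each alternative run. KDM5C, which removes the trimethyl mark, averaged 12.7 ± 2.20 FPKM in the libraries titled SPIN1 and 17.0 ± 0.511 FPKM in those titled NC and missed the threshold (log2 difference -0.40, limma adjusted p = 0.0594), which it passed after either scaling and with a weight per library.

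Of 17 other readers of the trimethyl mark, 1 was higher (5.88%), 3 were lower (17.6%) and 13 did not pass. The shares over all genes tested were 17.3% and 10.3%, and the median log2 difference of the 17 was -0.14. ING2, which tethers a histone deacetylase complex to the mark, averaged 3.14 ± 0.514 FPKM in the libraries titled SPIN1 and 0.663 ± 0.170 FPKM in those titled NC, 4.74-fold higher (SD, n = 3 each; log2 difference 1.31, SE 0.13, limma adjusted p = 0.00116). SGF29, the reader of the SAGA acetyltransferase complex, averaged 7.35 ± 0.576 FPKM in the libraries titled SPIN1 and 14.1 ± 1.93 FPKM in those titled NC, 1.92-fold lower (log2 difference -0.85, limma adjusted p = 0.00448). Both calls held in all 6 fits without a library. ING3 (-0.59, limma adjusted p = 0.0224) and PHF2 (-0.40, limma adjusted p = 0.0355), named after their values were seen, were lower and lost their calls in 3 and 5 of those fits.

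H2B ubiquitination by RNF20 and RNF40, with the PAF complex, precedes methylation of H3K4. Of 10 such genes 2 were higher (20%), 0 were lower and 8 did not pass. Over all genes tested the shares were 17.3% higher and 10.3% lower. LEO1, a PAF subunit, averaged 17.5 ± 1.93 FPKM in the libraries titled SPIN1 and 10.0 ± 1.10 FPKM in those titled NC (SD, n = 3 each), a log2 difference of 0.74 (limma adjusted p = 0.00636). RNF20 averaged 4.31 ± 0.462 FPKM in the libraries titled SPIN1 and 2.87 ± 0.1497 FPKM in those titled NC (log2 difference 0.45, limma adjusted p = 0.0238), and lost its call in 4 of the 6 fits without a library (up to 0.0827).

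Of 8 arginine methyltransferase genes 3 were higher (37.5%) and 0 lower, against 17.3% and 10.3% of all genes tested. The median log2 difference of the 8 was 0.29. PRMT7 averaged 7.92 ± 1.13 FPKM in the libraries titled SPIN1 and 4.29 ± 0.676 FPKM in those titled NC (SD, n = 3 each), a log2 difference of 0.75 (limma adjusted p = 0.0104). PRMT2, reported to methylate H3 arginine 8, averaged 4.96 ± 0.414 FPKM in the libraries titled SPIN1 and 3.37 ± 0.427 FPKM in those titled NC (log2 difference 0.45, limma adjusted p = 0.0315). The third, PRMT6, named after its values were seen, differed by 0.42 (limma adjusted p = 0.0377). PRMT7 held in all 6 fits without a library, PRMT2 in 1 and PRMT6 in 0. PRMT2 also lost its call with the replicate number as a block, and PRMT6 after quantile normalization.

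The NSL complex, an acetyltransferase assembly that shares WDR5, had 0 genes higher and 3 of 7 lower, with a median log2 difference of -0.33, against the 10.3% of all genes tested that were lower. KAT8, its catalytic subunit, averaged 7.89 ± 1.05 FPKM in the libraries titled SPIN1 and 12.3 ± 0.354 FPKM in those titled NC (SD, n = 3 each), a log2 difference of -0.59 (limma adjusted p = 0.0111), and held in all 6 fits without a library. KANSL3 averaged 4.71 ± 0.569 FPKM in the libraries titled SPIN1 and 7.53 ± 0.849 FPKM in those titled NC (log2 difference -0.58, limma adjusted p = 0.0166), and KANSL2, named after its values were seen, differed by -0.55 (limma adjusted p = 0.0173). Both lost their calls when titled NC replicate 2 or 3 was left out, and KANSL3 also when titled SPIN1 replicate 2 was (limma adjusted p up to 0.0635 for KANSL2).

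The last lists hold processes that spindlin 1 has been tied to. Of 14 genes of the RNA polymerase I machinery 0 were higher and 1 was lower (7.14%), against 17.3% and 10.3% of all genes tested. TAF1D, the lower gene and a subunit of the selectivity factor, averaged 4.04 ± 0.435 FPKM in the libraries titled SPIN1 and 6.75 ± 1.02 FPKM in those titled NC (SD, n = 3 each). Its log2 difference was -0.62 (limma adjusted p = 0.0171), and the call was lost in 3 of 6 fits without a library. UBTF, which opens ribosomal RNA genes, averaged 16.1 ± 1.33 FPKM in the libraries titled SPIN1 and 13.1 ± 0.727 FPKM in those titled NC and did not pass (log2 difference 0.27, limma adjusted p = 0.0837). Of 12 Wnt and TCF genes 6 were tested. Of these 1 was higher (16.7%) and 0 were lower, against the same 17.3% and 10.3%. CCND1, cyclin D1, averaged 64.2 ± 8.83 FPKM in the libraries titled SPIN1 and 47.6 ± 2.98 FPKM in those titled NC (log2 difference 0.42, limma adjusted p = 0.0393). The call of CCND1 was lost in 5 of 6 fits without a library and after median scaling or quantile normalization. CTNNB1, beta-catenin, averaged 12.1 ± 2.66 FPKM in the libraries titled SPIN1 and 7.81 ± 1.09 FPKM in those titled NC and did not pass (log2 difference 0.56, limma adjusted p = 0.0603).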

How the data were processed

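Messenger RNA was measured in 6 libraries of SNU-668 cells in a design of 3 libraries titled SPIN1 and 3 titled NC. Per the labels' protocols, libraries were poly(A)-enriched, strand-specific and read as paired ends. The submitters' processing notes name FastQC, cutadapt, HISAT2, StringTie and the build hg19. The authors deposited no counts but 1 FPKM per gene and library, as the file headers name it, and no gene of the table has both group means under 0.5 FPKM. Low values gave no step of whole reads: between replicates 12 to 35 genes were low in both libraries, and at most 4 of their ratios coincided.

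Genes averaging 0.5 FPKM or more were tested (253 left out) on log2(FPKM + 1) with limma 3.58.1 and statmod 1.5.0 in R 4.3.3, trended and robust, with Benjamini-Hochberg adjustment over all 11061 genes and a threshold of 0.05. Fold values are ratios of mean FPKM. Named genes were the 10 members, for each list the 2 of smallest adjusted p, and the 5 nearest to SPIN1; others are marked as named later. Members and lists were chosen with earlier results of these data known. The code was tested on simulated data. Alternatives were another pseudocount (0.1), no filter or one at 2 FPKM, median scaling, quantile normalization, a fit neither trended nor robust, library weights, a replicate block and leaving out each library. Figures used matplotlib 3.10.9.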

Additional observations from a re-analysis of the deposited data

How the results depend on the processing

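Over the table, higher calls numbered 1914 and lower calls 1139, and 3106 and 2304 with a weight per library. They ran from 1139 to 2042 and from 635 to 1267 with 1 library left out. Higher calls among the 10 genes fell to 0 after median scaling and 1 after quantile normalization, and ran from 0 to 3 with 1 library left out. Lower calls among them were 1 after median scaling, after quantile normalization, with the replicate block and with both libraries numbered 1 left out (chosen after the data were seen), 3 with a weight per library, and 0 to 2 with 1 library left out. Higher and lower calls on the pathway lists were 16 and 21 with a weight per library, 5 higher without both libraries numbered 1, and 5 to 10 and 2 to 11 with 1 library left out.

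A weight per library leaned the fit on titled SPIN1 replicate 2 and titled NC replicate 2. With it SPIN1 (-1.87), WDR5 (0.18), KMT2B (-0.31) and CXXC1 (-0.44) came past the threshold. After median scaling SPIN2B (0.40), C11orf84 (0.44) and DPY30 (0.34) were no longer past it and KMT2B was (-0.37). After quantile normalization SPIN2B (0.36) and DPY30 (0.35) were not and KMT2B was (-0.36). With the replicate block SPIN2B (0.45) was not and KMT2B (-0.29) was. Without both libraries numbered 1, SPIN2B (0.52) was not and KMT2B (-0.33) was. The cause was not tested. With 1 library left out, log2 differences ran from -2.03 to -0.65 for SPIN1, 0.34 to 0.54 for SPIN2B, 0.43 to 0.64 for C11orf84, 0.34 to 0.52 for DPY30, 0.19 to 0.27 for WDR5, -0.34 to -0.26 for KMT2B, -0.43 to -0.22 for CXXC1 and -0.018 to 0.24 for ASH2L. RBBP5 and KMT2A kept their direction and stayed short of the threshold in every alternative run. With a filter at 2 FPKM, SPIN2B and KMT2A had no value.

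Whether the replicate numbers pair the libraries is not settled here. Same-numbered libraries had correlations of their deviations of 0.216, 0.0551 and 0.148, all positive, and 1 of these is under 0.1. Each library correlated best with its own number except titled NC replicate 2, which did so with titled SPIN1 replicate 3 (0.0757), and the remaining pairs of unlike number were negative (-0.211 to -0.0209). This is a hint from the data, not the design. The block changed the counts over the table to 2048 higher and 1251 lower. Since no counts are known, the counting error of no gene could be given.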

Other observations

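Some genes on the lists stood apart in 1 library and were singled out after their values were seen. MYC, a transcription factor and Wnt target, had 63.4, 75.2 and 97.0 FPKM in titled SPIN1 replicates 1 to 3, against 54.8, 65.7 and 4.45 FPKM in titled NC replicates 1 to 3, and did not pass the test (limma adjusted p = 0.271). KDM5B, a demethylase of the trimethyl mark, had 1.39, 5.25 and 5.37 FPKM in titled SPIN1 replicates 1 to 3, against 5.32, 6.43 and 6.38 FPKM in titled NC replicates 1 to 3 (limma adjusted p = 0.274). The low library thus differed between SPIN1 (titled NC replicate 1), MYC (titled NC replicate 3) and KDM5B (titled SPIN1 replicate 1).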
